A study of Homo sapiens with 4 samples.

Results

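The 9 genes described here, HLA-B, HLA-C, HLA-E, HLA-F, B2M, TAP1, TAP2, TAPBP and NLRC5, encode MHC class I molecules, the proteins that load them with peptide and a regulator of their transcription. They were taken by name from the 43622 genes of the deposited RNA-seq table, and all 9 passed the expression filter that left 19932 genes for testing. The cells were PC3, an established line from human prostate cancer, and PC3-shp14ARF, the same line carrying an shRNA against p14ARF delivered by a retrovirus and kept under hygromycin selection. Each was given DMSO or 1 µM MLN4924, an inhibitor of the NEDD8-activating enzyme, and RNA was taken after 3 days. The 4 conditions were PC3 with DMSO (Ctrl), PC3 with MLN4924 (MLN), PC3-shp14ARF with DMSO (shARF) and PC3-shp14ARF with MLN4924 (Both), with 3 libraries in each. No control shRNA is named for the Ctrl and MLN cells, so the hairpin and its vector and selection cannot be told apart in the comparisons of the 2 lines. The sources do not say whether the libraries of a condition came from separate cultures, and p-values here measure only the spread between these libraries.

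MHC class I molecules are assembled in the endoplasmic reticulum from a heavy chain and the invariant light chain β2-microglobulin. Peptides cut by the proteasome in the cytosol are carried in by the transporter TAP and are fitted into the heavy chain while tapasin holds the empty molecule to TAP. Loaded molecules travel to the surface, where CD8 T cells and natural killer cells read them. Interferon γ is a classical inducer of this pathway, and NLRC5 is a transactivator of class I promoters. Tumour cells of epithelial origin often carry low levels of the pathway.

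The values are TPM, transcript abundances that are corrected for transcript length and scaled to a sum of 1000000 in every library, so levels may be compared between genes but the read depth behind a value is unknown. Within a condition, libraries correlated across 14663 genes with r between 0.9824 and 0.988 on the log2 scale, against 0.82 to 0.958 between conditions. CDKN2A, the gene of p14ARF, had 183 ± 6.49 TPM in Ctrl and 59.3 ± 1.47 TPM in shARF (SD, n = 3), and 118 ± 16.4 TPM in MLN and 47.5 ± 6.4 TPM in Both. Transcripts of the targeted gene were thus lower in PC3-shp14ARF cells but not absent. These values are for the whole gene, and the level of the p14ARF transcript alone is not given. The epithelial markers KRT8, KRT18, KRT19, EPCAM and CDH1 were detected in every library. Their summed level was 907 to 1004 TPM in Ctrl, 439 to 504 TPM in MLN, 1138 to 1280 TPM in shARF and 433 to 450 TPM in Both. The leukocyte markers PTPRC, CD3E, CD14 and NKG7 summed to at most 1.07 TPM in any library, with CD3E at 0 in all Ctrl and MLN libraries. These are bulk libraries, in which fewer cells of a kind and less RNA per cell cannot be told apart.

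Of the 9 genes, 7 lie in the MHC region on the short arm of chromosome 6 (GRCh38, GENCODE annotation), spread over 3592 kb. HLA-F spans 29722775 to 29738528 and HLA-E 30489509 to 30494194, both on the plus strand. HLA-C spans 31268749 to 31272130 and HLA-B 31353872 to 31367067 on the minus strand. TAP2 (32821833 to 32838739), TAP1 (32845209 to 32853816) and TAPBP (33299694 to 33314284) follow, also on the minus strand. The span annotated for PSMB9, a gene of the immunoproteasome on the opposite strand, runs from 32844136 to 32859851 and contains TAP1, so reads of this pair may not be told apart without strand. The start sites of the canonical transcripts of TAP1 and PSMB9 in the same annotation lie 488 bases apart and point away from each other. B2M lies on chromosome 15 from 44711358 to 44718851 and NLRC5 on chromosome 16 from 56989485 to 57083531, both on the plus strand.

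The promoters of 5 of the genes are shown because their transcripts gave the contrasting responses described below. Each sequence is the 250 bases before the start site of the RefSeq annotation (GRCh38.p14), read in the direction of transcription. Capitals mark matches, on either strand, to an interferon-type repeat (GAAA, any 2 bases and GAAA again, the arrangement bound by interferon-response factors), to the same repeat 1 base shorter (GAA, any 2 bases and GAAA), to a kappa B type element (GGGA, any base, T, any 2 bases and CC, bound by NF-kB), to CCAAT (bound by NF-Y) and to TGACG (the core of elements bound by CREB and ATF factors). Matches can overlap, as do those to the repeat in TAP1, TAP2, TAPBP and B2M and those to the kappa B type element in HLA-B.

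HLA-B (chr6:31357180-31357429, minus strand): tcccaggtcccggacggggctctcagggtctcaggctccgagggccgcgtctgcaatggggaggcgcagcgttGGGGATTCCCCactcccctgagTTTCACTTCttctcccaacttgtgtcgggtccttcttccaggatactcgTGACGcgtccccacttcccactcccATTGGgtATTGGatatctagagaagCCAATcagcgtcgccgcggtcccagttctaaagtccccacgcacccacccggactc

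B2M (chr15:44711267-44711516, plus strand): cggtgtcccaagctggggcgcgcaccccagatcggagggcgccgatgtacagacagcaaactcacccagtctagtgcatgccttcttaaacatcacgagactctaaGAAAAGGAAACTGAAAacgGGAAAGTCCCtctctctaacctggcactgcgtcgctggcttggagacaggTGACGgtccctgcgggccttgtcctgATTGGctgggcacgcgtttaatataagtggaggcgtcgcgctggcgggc

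TAP1 (chr6:32853705-32853954, minus strand): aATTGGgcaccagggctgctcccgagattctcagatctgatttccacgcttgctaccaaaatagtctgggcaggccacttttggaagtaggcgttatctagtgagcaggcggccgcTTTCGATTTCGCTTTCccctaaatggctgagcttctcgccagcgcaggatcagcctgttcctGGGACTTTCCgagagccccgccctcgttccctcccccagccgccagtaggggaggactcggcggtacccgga

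TAP2 (chr6:32838740-32838989, minus strand): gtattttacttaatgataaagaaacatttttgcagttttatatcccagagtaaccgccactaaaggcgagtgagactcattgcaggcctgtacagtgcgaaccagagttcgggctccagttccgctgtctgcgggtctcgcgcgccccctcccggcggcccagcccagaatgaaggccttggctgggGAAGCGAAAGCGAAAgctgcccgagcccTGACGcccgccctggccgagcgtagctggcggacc

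TAPBP (chr6:33314079-33314328, minus strand): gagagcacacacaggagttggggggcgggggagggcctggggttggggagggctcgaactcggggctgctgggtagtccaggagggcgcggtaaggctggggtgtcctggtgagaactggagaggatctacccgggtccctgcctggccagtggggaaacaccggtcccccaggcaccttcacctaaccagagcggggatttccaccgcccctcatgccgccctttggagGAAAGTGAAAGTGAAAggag

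An entry was found for 7 of the 9 genes, and these motif letters were chosen after the promoters had been seen. The interferon-type repeat was present in the 250 bases of HLA-F, TAP1, TAP2, TAPBP and B2M, 5 of 7 genes, beside 3.02% of 35116 promoters of this length. TAP1 has another start site in the table, for which the 250 bases held none of the motifs, so the 7 genes stand for 8 such windows. The shorter repeat was present in HLA-B, HLA-C and TAP2 and in 6.56% of all promoters. The kappa B type element was found in HLA-B, HLA-C, TAP1 and B2M and in 4.46% of all promoters. CCAAT was found in 5 of the 7 genes (32% of all promoters) and TGACG in 4 (21.2%). TAPBP carried 2 overlapping matches to the interferon-type repeat and none of the other motifs. A match is only a match of letters and does not show a bound site.

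In PC3 cells given DMSO the light chain was the most abundant of the 9 transcripts and the regulator the least. B2M had 396 ± 32.3 TPM in Ctrl (SD, n = 3). Among heavy chains, HLA-E had 289 ± 17.5 TPM, HLA-C 224 ± 15.9 TPM, HLA-B 80.9 ± 8.41 TPM and HLA-F 5.24 ± 0.362 TPM. Tapasin (TAPBP) had 131 ± 17.8 TPM, above the TAP subunits TAP1 with 53.2 ± 1.57 TPM and TAP2 with 44.7 ± 4.58 TPM. NLRC5 had 2.19 ± 0.188 TPM. HLA-E, whose protein presents leader peptides of other class I chains to receptors of natural killer cells, thus made up 48.3% ± 0.662 of the summed heavy-chain transcripts, ahead of HLA-C with 37.4% ± 0.433 and HLA-B with 13.5% ± 0.459. HLA-B and HLA-C differ greatly between people, and reads from the alleles of this line were mapped to the reference genome; the effect on their levels was not tested.

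**Figure D1:**
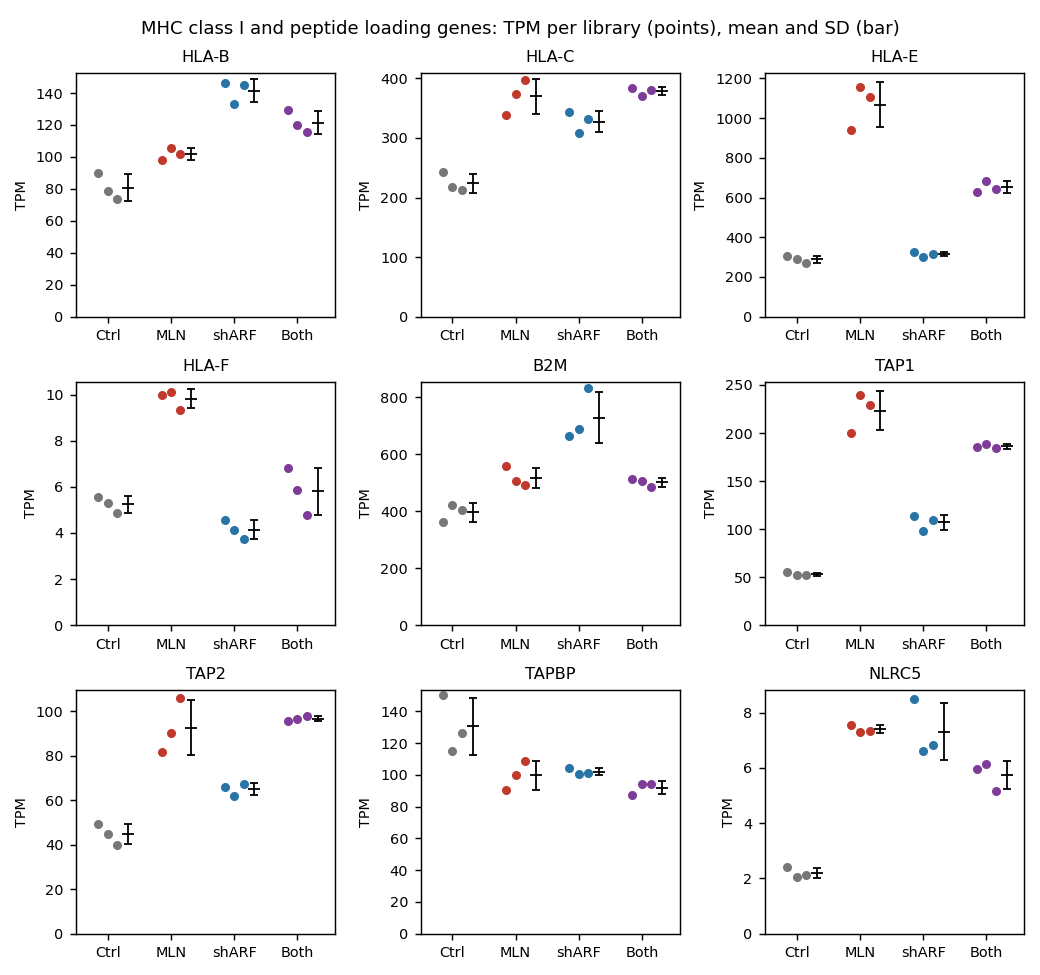
TPM (y axis, from 0) of the 9 genes in each library (points) of Ctrl, MLN, shARF and Both, with the mean and SD (bar) of 3 libraries. TAP1 and HLA-E stand highest in MLN, B2M and HLA-B stand highest in shARF, and TAPBP stands highest in Ctrl.

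The comparison of MLN with Ctrl asks what MLN4924 did in unmodified PC3 cells. Of the 9 genes, 8 were higher and TAPBP was lower at an adjusted p below 0.05 (limma on log2(TPM + 0.1), adjusted over all genes tested), in a comparison where 61.6% of all genes were called, 32.2% as higher and 29.4% as lower. A log2 fold change above 1 was passed by TAP1, HLA-E, NLRC5 and TAP2, against 15.6% of all genes. The median log2 fold change was 0.89 over the 9 genes and 0.05 over all genes. On this scale the change of low genes such as NLRC5 is understated.

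The heavy chains responded unequally. HLA-E was at 272, 289.5 and 307 TPM in the Ctrl libraries and at 941, 1105 and 1158 TPM in the MLN libraries. Every MLN library thus lay far above every Ctrl library, with a log2 fold change of 1.88 ± 0.10 (SE, adjusted p = 2.45e-05). HLA-F, a heavy chain of the non-classical group like HLA-E, went from 4.86 to 5.58 TPM in Ctrl to 9.34 to 10.1 TPM in MLN (log2 fold change 0.89, adjusted p = 0.000219). HLA-F overlaps the antisense gene HLA-F-AS1 over 11928 bases, and since strand use in the counting is not stated, reads of the pair cannot be told apart. HLA-F-AS1 was at 2.8 to 3.69 TPM in Ctrl and 5.02 to 5.4 TPM in MLN. HLA-C, a classical chain that is also a ligand of killer-cell receptors, was at 212, 218 and 242 TPM in Ctrl and at 339, 374 and 397 TPM in MLN, a log2 fold change of 0.72 ± 0.08 (adjusted p = 0.000511). HLA-B, the other classical chain, moved least, from 73.6, 78.8 and 90.1 TPM in Ctrl to 98, 102 and 105 TPM in MLN. The HLA-B libraries of the 2 conditions did not overlap (log2 fold change 0.34 ± 0.08, adjusted p = 0.0125). Summed over the 4 heavy chains, the level was 599 ± 41.6 TPM in Ctrl and 1550 ± 141 TPM in MLN, and the share of HLA-E in this sum went to 68.9% ± 1.29 while that of HLA-B went to 6.59% ± 0.41.

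The light chain B2M was at 361, 405 and 424 TPM in Ctrl and at 492, 505 and 558 TPM in MLN, a log2 fold change of 0.39 ± 0.09 (adjusted p = 0.0081). Within a library, the 4 heavy chains summed to 1.52 ± 0.227 times the B2M level in Ctrl and to 3.01 ± 0.451 times in MLN. TAP1, a subunit of the peptide transporter, showed the largest log2 fold change of the 9 genes. It was at 52.2, 52.4 and 55.0 TPM in Ctrl and at 200.4, 229.6 and 239.8 TPM in MLN (log2 fold change 2.06 ± 0.08, adjusted p = 8.79e-06). Its partner TAP2 was at 40.1, 44.9 and 49.3 TPM in Ctrl and at 81.6, 90.5 and 106 TPM in MLN (log2 fold change 1.05 ± 0.12, adjusted p = 0.000515). The TAP1 to TAP2 ratio was 1.20 ± 0.0989 in Ctrl and 2.42 ± 0.246 in MLN, so the subunit transcripts, which were near equal in Ctrl, were not so in MLN. In the annotated TAP2 transcript 34.7% of windows of 100 bases also occur in another annotated gene, so the level of TAP2 is less certain than those of the other members, for which this share was at most 0.612%. With windows of 50 bases it was 35.3% for TAP2, 7.09% for TAPBP, 6.77% for HLA-C, 6.16% for HLA-E and at most 2.56% for the rest, and the read length is unknown.

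TAPBP, which encodes tapasin, ran against the others. It was at 115, 126 and 150.1 TPM in Ctrl and at 90.5, 100.1 and 108 TPM in MLN (log2 fold change −0.38 ± 0.12, adjusted p = 0.0283). Its call was lost without MLN replicate 1 (adjusted p = 0.0929), MLN replicate 2 (0.0773), Ctrl replicate 1 (0.0599) or Ctrl replicate 2 (0.0661). NLRC5 was at 2.06, 2.11 and 2.41 TPM in Ctrl and at 7.28, 7.34 and 7.55 TPM in MLN, a narrow group far above the Ctrl libraries (log2 fold change 1.71 ± 0.10, adjusted p = 3.67e-05). While these genes rose, the summed epithelial markers were lower and the summed leukocyte markers were 0.412 to 1.07 TPM in MLN against 0.0793 to 0.395 TPM in Ctrl. Of these, PTPRC, a general leukocyte marker, was called higher (1.62, adjusted p = 0.00449) at 0 to 0.0726 TPM in Ctrl and 0.252 to 0.282 TPM in MLN, CD14 did not pass, and CD3E was at 0 in both conditions. PTPRC was called higher in Both than in shARF too (1.73, adjusted p = 0.00181). It passed the expression filter through its levels in MLN and Both, so these 2 calls are a description only. The part of either set of markers in the result was not tested.

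The comparison of Both with shARF asks the same of cells depleted of p14ARF. Of the 9 genes, 5 were higher and 3 lower, and NLRC5 did not pass the threshold, where 61.0% of all genes were called, 28.3% as higher and 32.8% as lower. The median log2 fold change was 0.21 over the 9 genes and −0.04 over all genes. Only HLA-E passed a log2 fold change of 1 in this comparison (13.0% of all genes).

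HLA-E was at 303, 317 and 324 TPM in shARF and at 630, 646 and 685 TPM in Both, a log2 fold change of 1.05 ± 0.05 (adjusted p = 1.92e-05). TAP1 was at 98.2, 109.5 and 113 TPM in shARF and at 184, 185 and 189 TPM in Both (0.80 ± 0.06, adjusted p = 9.1e-05). TAP2 was at 62.1 to 67.4 TPM in shARF and at 95.6 to 98 TPM in Both (0.57 ± 0.04, adjusted p = 7.86e-05). For these 3 genes no library of one condition reached those of the other, and the same held for every other member. How many of all genes show this was not counted. HLA-C rose by a smaller step, from 308 to 343 TPM in shARF to 371 to 384 TPM in Both (0.21 ± 0.05, adjusted p = 0.0138). B2M went the other way, from 665, 689.7 and 831 TPM in shARF to 485, 506 and 513 TPM in Both (−0.53 ± 0.09, adjusted p = 0.00334). The light chain was thus lower in every MLN4924-treated library of the depleted cells, whereas it was higher in every treated library of unmodified PC3 cells.

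HLA-B was at 133, 145 and 146 TPM in shARF and at 115, 120 and 129 TPM in Both (−0.22 ± 0.06, adjusted p = 0.0213). This call was lost with median-of-ratios scaling (−0.12, adjusted p = 0.18) and without Both replicate 3 (adjusted p = 0.0645), Both replicate 2 (0.0671), shARF replicate 5 (0.0716) or shARF replicate 3 (0.073). HLA-F was called higher (0.47 ± 0.15, adjusted p = 0.0414) at 3.72 to 4.57 TPM in shARF and 4.76 to 6.79 TPM in Both, but not without Both replicate 4 (0.106), Both replicate 3 (0.108), shARF replicate 5 (0.0561), shARF replicate 1 (0.104) or shARF replicate 3 (0.123). TAPBP was called lower (−0.15 ± 0.04, adjusted p = 0.0265), at 100.3 to 104 TPM in shARF and 87.1 to 94.5 TPM in Both. That call was lost with median-of-ratios scaling (adjusted p = 0.19), with all 12 libraries in one fit (0.168), without the trend in the variance (0.0731), and without shARF replicate 5 (0.0795), 1 (0.0581) or 3 (0.0633). NLRC5 was at 6.61, 6.81 and 8.48 TPM in shARF and at 5.17, 5.95 and 6.13 TPM in Both. These libraries did not overlap, but the difference of −0.33 ± 0.13 missed the threshold (adjusted p = 0.0621). It passed with a filter at a mean of 1 TPM (0.0355) and with 12 libraries in one fit (0.0247).

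**Figure D2:**
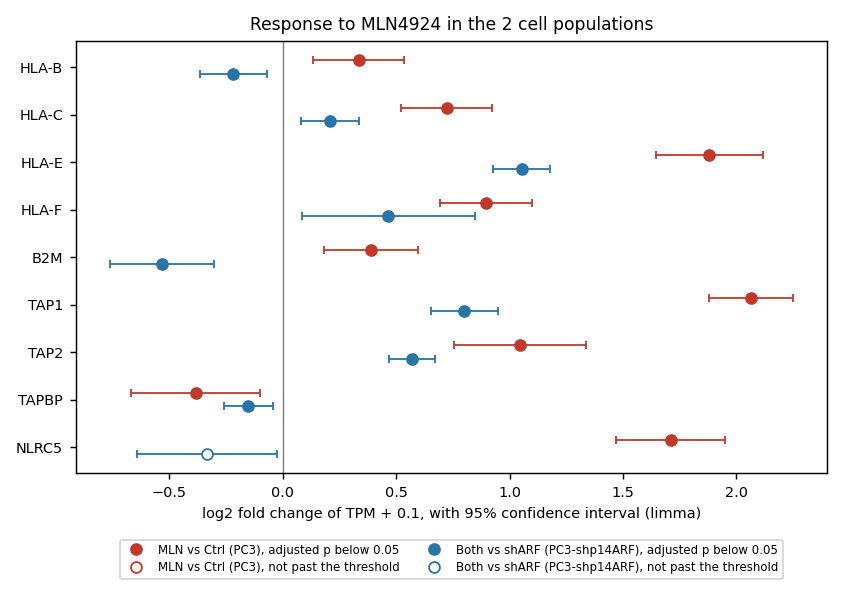
Log2 fold change of TPM + 0.1 (x axis) with its 95% confidence interval for the 9 genes, for MLN vs Ctrl and Both vs shARF; filled points passed an adjusted p of 0.05. TAP1 has 2.06 for MLN vs Ctrl against 0.80 for Both vs shARF, and B2M and NLRC5 lie above 0 in the former and below 0 in the latter.

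Whether the drug response differed between the lines was tested directly, as an interaction term fitted to the 12 libraries. The term was negative, meaning a lower response in PC3-shp14ARF cells, for 7 of the 9 genes, where 28.3% of all genes were called, 17.1% as negative and 11.2% as positive. The median over the 9 genes was −0.55, against −0.09 over all genes. NLRC5 had the largest difference, −2.04 ± 0.16 on the log2 scale (adjusted p = 4.51e-06), followed by TAP1 with −1.26 (adjusted p = 4.44e-06) and B2M with −0.92 (adjusted p = 0.000283). HLA-E (−0.83, adjusted p = 0.000242), HLA-B (−0.55, adjusted p = 0.0023), HLA-C (−0.51, adjusted p = 0.00288) and TAP2 (−0.48, adjusted p = 0.0169) also passed. HLA-F (−0.43, adjusted p = 0.0973) and TAPBP (0.23, adjusted p = 0.204) did not. HLA-F passed without Both replicate 4 (adjusted p = 0.03), and TAPBP passed with median-of-ratios scaling (adjusted p = 0.0399). The interaction takes in the Ctrl and shARF levels, which differed before any drug was given.

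That baseline difference is the comparison of shARF with Ctrl. Of the 9 genes, 6 were higher in shARF, TAPBP was lower, and HLA-E and HLA-F did not pass, where 41.4% of all genes were called, 21.0% as higher and 20.4% as lower. NLRC5 and TAP1 passed a log2 fold change of 1, as did 3.87% of all genes. The median was 0.55 over the 9 genes and 0 over all genes. This comparison shares its Ctrl libraries with that of MLN and Ctrl.

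The regulator NLRC5, at 2.06 to 2.41 TPM in Ctrl, was at 6.61 to 8.48 TPM in shARF, with a log2 fold change of 1.68 ± 0.13 (adjusted p = 0.000617). TAP1 went from 52.2 to 55.0 TPM in Ctrl to 98.2 to 113 TPM in shARF (1.01 ± 0.06, adjusted p = 0.00032), and TAP2 had a log2 fold change of 0.54 ± 0.08 (adjusted p = 0.0053). Both transporter subunits were therefore already raised without the drug in the depleted line. B2M was at 361 to 424 TPM in Ctrl and 665 to 831 TPM in shARF (0.87 ± 0.11, adjusted p = 0.00275). HLA-B went from 73.6 to 90.1 TPM to 133 to 146 TPM (0.81 ± 0.09, adjusted p = 0.00164) and HLA-C from 212 to 242 TPM to 308 to 343 TPM (0.55 ± 0.07, adjusted p = 0.00268). HLA-E and HLA-F were not called as higher. HLA-E was at 303 to 324 TPM in shARF against 272 to 307 TPM in Ctrl, an overlap (0.12, 95% interval −0.02 to 0.26, adjusted p = 0.134). HLA-F was at 3.72 to 4.57 TPM in shARF, below all Ctrl libraries, with a log2 fold change of −0.33 that missed the threshold (adjusted p = 0.0546) but passed with a filter at a mean of 1 TPM (0.0395), with median-of-ratios scaling (0.0255), without the trend in the variance (0.0468) and without shARF replicate 5 (0.0484). TAPBP was lower (−0.35 ± 0.10, adjusted p = 0.0436), a call lost without the trend (0.0561) and without Ctrl replicate 2 (0.0928), shARF replicate 5 (0.0984), 1 (0.121) or 3 (0.116).

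In the depleted line without drug, the 4 heavy chains summed to 787 ± 35.6 TPM, and their ratio to B2M was 1.09 ± 0.135, the lowest of the 4 conditions. The composition of the heavy chains also differed: HLA-C (41.6% ± 0.42) stood slightly above HLA-E (40.0% ± 0.495) in each library, and HLA-B made up 17.9% ± 0.228. In Both the share of HLA-E was 56.4% ± 1.59 and the ratio of heavy chains to B2M was 2.31 ± 0.0632. The epithelial markers moved with these genes between Ctrl and shARF, 4 of 5 being higher in shARF (21.0% of all genes), and their part in the result was not tested.

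The comparison of Both with MLN asks how depletion of p14ARF changed the levels reached under the drug. Here 1 gene was higher, 4 were lower and 4 did not pass, where 32.4% of all genes were called, 11.8% as higher and 20.6% as lower. Of the 9 genes, HLA-E and HLA-F had the largest differences. HLA-E was at 630 to 685 TPM in Both against 941 to 1158 TPM in MLN (−0.70 ± 0.10, adjusted p = 0.00456), and HLA-F was at 4.76 to 6.79 TPM against 9.34 to 10.1 TPM (−0.76 ± 0.14, adjusted p = 0.00985). Smaller differences were found for NLRC5 (−0.36 ± 0.09, adjusted p = 0.0292), TAP1 (−0.26 ± 0.08, adjusted p = 0.0476) and HLA-B, which was higher (0.26 ± 0.06, adjusted p = 0.0224). HLA-C (0.04, 95% interval −0.14 to 0.21), B2M (−0.05, −0.22 to 0.13), TAP2 (0.07, −0.17 to 0.31) and TAPBP (−0.11, −0.31 to 0.08) were not called.

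Of these calls, those of HLA-E and HLA-F held under every alternative run, and those of HLA-B, TAP1 and NLRC5 did not. The call for HLA-B was lost without the trend in the variance (adjusted p = 0.0543) and without MLN replicate 1 (0.0539), 2 (0.0519) or 5 (0.0618) or Both replicate 3 (0.0563). That for TAP1 was lost without MLN replicate 2 (0.132) or 5 (0.127) or Both replicate 4 (0.11), 3 (0.103) or 2 (0.134), and under 4 of the other settings (0.0504 to 0.105). That for NLRC5 was lost with median-of-ratios scaling (0.0654) and without MLN replicate 1 (0.0718), 2 (0.0818) or 5 (0.0752) or Both replicate 4 (0.0537) or 2 (0.0718).

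**Figure D3:**
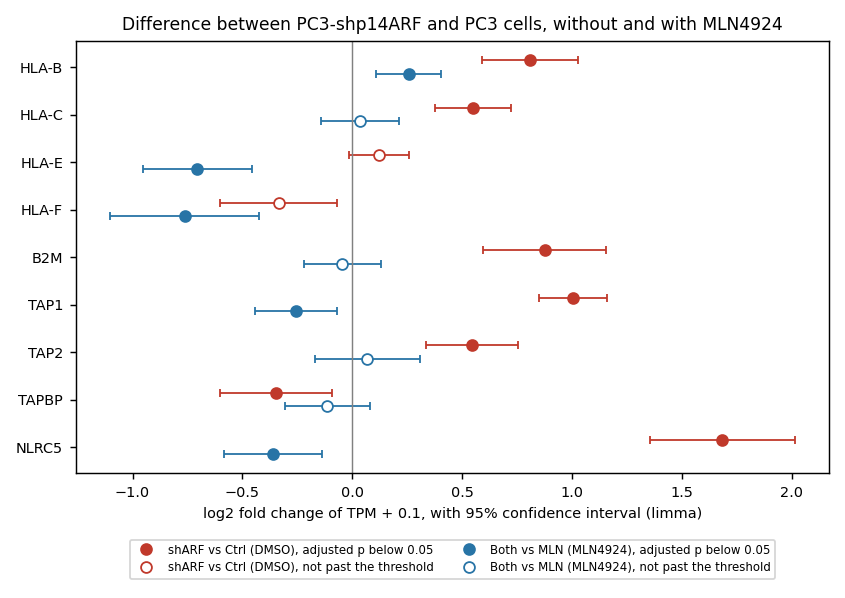
Log2 fold change of TPM + 0.1 (x axis) with its 95% confidence interval for the 9 genes, for shARF vs Ctrl (DMSO) and Both vs MLN (MLN4924); filled points passed an adjusted p of 0.05. NLRC5 has 1.68 with DMSO and −0.36 with MLN4924, and HLA-E has 0.12 and −0.70.

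Placed in order of their means, the 4 conditions differed from gene to gene. Ctrl was lowest for all of the genes except HLA-F, lowest in shARF, and TAPBP, lowest in Both. MLN was highest for HLA-E, HLA-F, TAP1 and NLRC5, shARF for HLA-B and B2M, Both for HLA-C and TAP2, and Ctrl for TAPBP. Neighbours in these orders that were not separated by the test included MLN and Both for HLA-C, TAP2 and B2M, and shARF and MLN for NLRC5 (difference 0.03, 95% interval −0.24 to 0.29). Against Ctrl, the cells with both interventions had 7 genes higher and TAPBP lower (61.7% of all genes called, 28.5% as higher and 33.2% as lower), and HLA-F, at 4.76 to 6.79 TPM against 4.86 to 5.58 TPM, did not pass (adjusted p = 0.469). Between MLN and shARF 4 genes were higher in MLN and 2 lower (65.8% of all genes called, 34.5% as higher and 31.3% as lower).

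The genes whose level over the 12 libraries was most like that of a member were found by Pearson's r of log2(TPM + 0.1) among 14654 genes, as a description over 4 conditions of 3 libraries. For TAP1 they included TACO1 and IRF1 (both 0.994) and NCAPH2 and CDT1 (both 0.99). For NLRC5 they were LYPD5 (0.985), METTL7A (0.979), SNHG20 (0.978), PSME2 (0.973) and TNFRSF8 (0.971). For HLA-B they were ZNF740 and AXIN1 (both 0.979), TXNIP (0.967), POLR3K (0.965) and TELO2 (0.964), so the nearest genes of the 3 members did not coincide. Among the members themselves r ranged from −0.77 for TAP1 with TAPBP to 0.97 for TAP1 with TAP2. HLA-B had r = 0.83 with B2M and 0.06 with HLA-E.

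The pathway around these genes was described from lists written from general knowledge. Upstream, the immunoproteasome subunits PSMB8, PSMB9 and PSMB10, which replace constitutive subunits and shift the peptides cut, and the PA28 activator subunits PSME1 and PSME2 were all higher in MLN than in Ctrl (5 of 5, against 32.2% of all genes). PSMB9 was at 6.51 to 7.12 TPM in Ctrl and 18.5 to 24.0 TPM in MLN (log2 fold change 1.60, adjusted p = 5.78e-05), and PSMB8 at 70.6 to 76.1 and 183 to 202 TPM (1.42, adjusted p = 1.2e-05). PSMB10 (0.80), PSME2 (0.71) and PSME1 (0.44) followed. All 5 were also higher in shARF than in Ctrl (21.0% of all genes), led by PSMB9 (1.63, adjusted p = 0.000171) and PSMB8 (1.00, adjusted p = 9.58e-05), with PSME1 (0.73), PSME2 (0.73) and PSMB10 (0.62). In the depleted line MLN4924 gave a mixed pattern. Between shARF and Both PSMB8 was higher (0.18), PSMB10 (−0.51), PSME1 (−0.36) and PSME2 (−0.24) were lower and PSMB9 (−0.23, adjusted p = 0.142) did not pass. The interaction was called negative for all 5 (17.1% of all genes), with a median of −1.25.

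The calls for PSMB8 and PSMB10 between Both and shARF were not stable: that for PSMB8 was lost without the trend in the variance (adjusted p = 0.0518) and without shARF replicate 5 (adjusted p = 0.0559) or 1 (0.0704), and that for PSMB10 with median-of-ratios scaling (0.0508) and without Both replicate 2 (0.0597) or shARF replicate 5 (0.065) or 3 (0.0542). Of the constitutive counterparts, PSMB5 (0.88) and PSMB6 (0.54) were higher in MLN than in Ctrl and PSMB7 (−0.01) was not called. The summed immunoproteasome subunits were 0.0857 ± 0.00249 of the summed constitutive ones in Ctrl and 0.148 ± 0.0141 in MLN. In the depleted line this ratio was 0.154 ± 0.00581 with DMSO and 0.128 ± 0.00779 with MLN4924. The constitutive transcripts thus remained far the more abundant in every condition.

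The chaperones that fold and check class I chains in the endoplasmic reticulum and the aminopeptidases that trim their peptides were mostly lower under the drug. Of 7 genes, 5 were lower and 1 higher in MLN than in Ctrl (29.4% and 32.2% of all genes), with a median of −0.85. PDIA3, a partner of tapasin in the loading complex, was at 654 to 663 TPM in Ctrl and 213 to 239 TPM in MLN (log2 fold change −1.54, adjusted p = 9.82e-06). UGGT1 (−1.30), which returns poorly folded glycoproteins to their chaperones, the chaperone calnexin (CANX, −1.27) and the trimming enzyme ERAP1 (−0.85) were also lower, and TAPBPL, a relative of tapasin at 1.23 ± 0.217 TPM in Ctrl, was the one higher gene (0.73). In PC3-shp14ARF cells 5 of 7 were lower with the drug (32.8% of all genes) and the other 2 were not called. Lower genes included PDIA3 (−1.14), calreticulin (CALR, −0.98), CANX (−0.86) and ERAP1 (−0.72). Without drug, 4 of 7 were lower in shARF than in Ctrl (20.4% of all genes). ERAP2, the second trimming enzyme, was at 10.4 to 12.1 TPM in Ctrl, 9.1 to 11.4 TPM in MLN, 4.58 to 4.69 TPM in shARF and 2.68 to 4.05 TPM in Both. It was thus lower in the depleted line both without drug (−1.25, adjusted p = 0.000257) and with it (−1.56, adjusted p = 0.00218).

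Among 11 ligand, receptor and signalling genes of the interferon pathway, 6 were higher and 4 lower in MLN than in Ctrl, where 61.6% of all genes were called, 32.2% as higher. Between Both and shARF 6 were higher and 3 lower, where 61.0% were called, 28.3% as higher. IFNG, the gene of interferon γ, was listed at 0 in all Ctrl and shARF libraries. It was at 43.5, 44.3 and 62.8 TPM in the MLN libraries and at 12.9, 18.6 and 20.03 TPM in the Both libraries. It was thus seen in both treated conditions, and was lower in Both than in MLN (−1.54 ± 0.22, adjusted p = 0.00434). IFNG lies inside the antisense gene IFNG-AS1, which was at 0 in all MLN and Both libraries and at no more than 0.148 TPM elsewhere; it was looked at after the values of IFNG had been seen. IFNB1, the gene of interferon β, did not exceed 0.53 TPM in any library. IFNG passed the expression filter only through its levels in MLN and Both, and IFNB1 was near the floor. The counts for this list, which include both genes, are therefore a description only. STAT2 was at 43.3 to 48.0 TPM in Ctrl, 228 to 254 TPM in MLN, 48.5 to 57.6 TPM in shARF and 146 to 157 TPM in Both. STAT2 thus rose by 2.42 on the log2 scale with the drug in unmodified cells but by 1.48 in the depleted line, an interaction of −0.94 (adjusted p = 4.69e-05). IRF9, a partner of STAT2, rose by 1.12 with the drug in unmodified cells, and its interaction term was −0.38 (adjusted p = 0.0153). Of the receptor chains for interferon γ, IFNGR1 was higher (0.99) and IFNGR2 lower (−0.95) in MLN than in Ctrl.

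Of the 12 transcription factors known to act on class I promoters, 3 were higher and 3 lower in MLN than in Ctrl, fewer than the 61.6% of all genes called, with a median of −0.11. IRF1, an interferon-induced factor that binds the repeat shown above, was at 7.69 to 9.5 TPM in Ctrl, 45.3 to 56.2 TPM in MLN, 19.6 to 23.1 TPM in shARF and 34.9 to 38.9 TPM in Both. Its log2 fold change was 2.56 in MLN vs Ctrl (adjusted p = 1.67e-05), 1.24 in shARF vs Ctrl (adjusted p = 0.000929) and 0.82 in Both vs shARF (adjusted p = 0.000308), and its interaction term was −1.74 (adjusted p = 6.43e-06). Between Both and MLN it was −0.50 (adjusted p = 0.0118), a call lost without MLN replicate 2 (0.0522) or Both replicate 2 (0.0508). The NF-Y subunits went apart, NFYB being higher (1.08) and NFYC lower (−0.89) in MLN than in Ctrl. USF2, a factor of E-box elements, was lower (−1.45), at 21.1 to 24.3 TPM in Ctrl. USF1, more abundant than USF2, went the other way, from 62.4 to 69.2 TPM in Ctrl to 96.9 to 110 TPM in MLN. RFX5, a subunit of the RFX complex on which NLRC5 acts at class I promoters, was at 58.5 to 64.9 TPM in Ctrl and 60.3 to 62.6 TPM in MLN and was not called (adjusted p = 0.784).

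**Figure D4:**
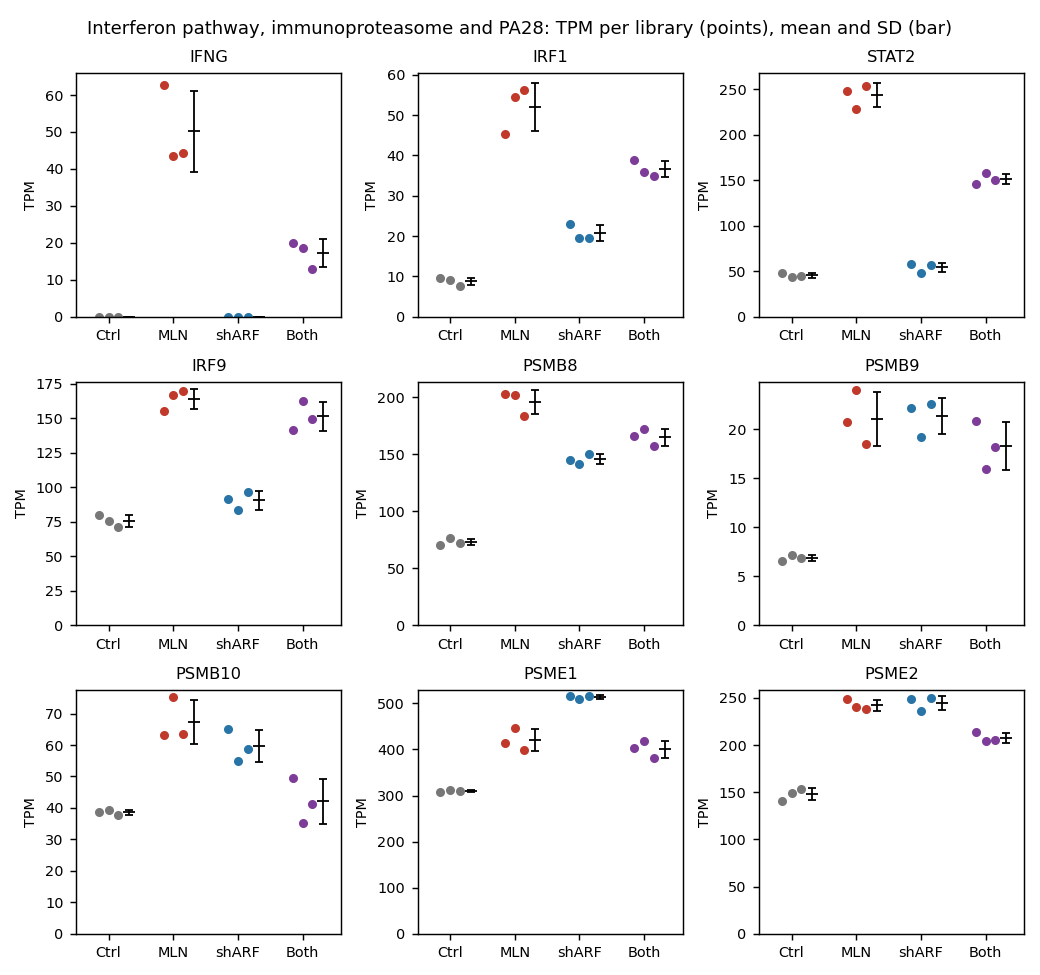
TPM (y axis, from 0) of IFNG, IRF1, STAT2, IRF9 and the immunoproteasome and PA28 genes in each library (points) of the 4 conditions, with the mean and SD (bar) of 3 libraries. IFNG is at 0 in Ctrl and shARF, STAT2 stands highest in MLN and next in Both, and PSME1 stands highest in shARF.

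The NF-kB subunits, whose sites are also part of class I promoters, were mostly higher under the drug and mostly lower in shARF than in Ctrl. RELA (0.58), NFKB2 (0.83), RELB (0.66) and REL (0.57) were higher and NFKB1 (−1.37) lower in MLN than in Ctrl, and the same directions were called in Both vs shARF, with RELB at 1.46 and REL at 1.70. In shARF vs Ctrl 4 of 5 were lower (20.4% of all genes), namely REL (−1.14), RELB (−0.92), NFKB2 (−0.71) and NFKB1 (−0.59), and RELA was not called. Between Both and MLN, 1 of 5 was higher, 1 was lower and 3 were not called (11.8% of all genes higher, 20.6% lower). In PRC2, a complex that represses genes through histone methylation, the catalytic subunit EZH2 was higher in MLN than in Ctrl (1.20, adjusted p = 3.33e-05) and in shARF than in Ctrl (0.41, adjusted p = 0.00635). EED (0.80) was higher in MLN and SUZ12 (−0.09) was not called there.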

How the data were processed

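The submitters' labels define 4 conditions of PC3 cells, and the columns of the deposited table give 3 libraries for each. The series text and the sample protocol differ on the dose unit and on knockout or shRNA, and 1 µM and shRNA were used. The authors used CLC Genomics Workbench to trim the reads, align them to hg38 and quantify Ensembl genes, and the values they deposited are TPM with no filter. Read length and strandedness are not given in the sources used here. TPM carry no depth, so no counting error could be given.

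From the TPM values, log2(TPM + 0.1) was tested for genes whose mean over the libraries reached 0.1 TPM, with limma 3.58.1 (lmFit, eBayes with trend; R 4.3.3). Pairwise comparisons used the 6 libraries of their 2 groups and the interaction all 12. Benjamini-Hochberg adjustment covered all genes tested. Genes were named as members, as up to 4 genes per list with the largest called change at a mean of at least 1 TPM, as whole lists of up to 5 genes, as CDKN2A and as the 5 genes most like HLA-B, TAP1 and NLRC5. RFX5, USF1, IFNB1, TAPBPL and the receptor chains of interferon γ were added after their values were seen. The members and lists were chosen with earlier results of these data known. Promoters are from RefSeq (GRCh38.p14) and coordinates from GENCODE, another annotation than the authors'. Some genes of the lists are not reported here and were left out of their counts. The fits were tested on simulated data. Each library was left out in turn, and the fits were repeated with a replicate block, with no trend in the variance, with one model for all 12 libraries, with median-of-ratios scaling, with no filter or one at 1 TPM, and with pseudocounts of 0.01 and 1.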

Additional observations from a re-analysis of the deposited data

Results flagged for a closer look

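How far the MLN4924 response of PC3-shp14ARF cells differed from that of PC3 cells was tested as an interaction with limma over the 12 libraries, and 7 of the 9 genes passed an adjusted p of 0.05 (28.3% of all genes did). On the log2 scale the difference was −2.04 for NLRC5, −1.26 for TAP1, −0.92 for B2M, −0.83 for HLA-E, −0.55 for HLA-B, −0.51 for HLA-C and −0.48 for TAP2. For B2M the 2 responses had opposite signs and each passed the threshold, at 0.39 in MLN vs Ctrl and −0.53 in Both vs shARF. The B2M call in MLN vs Ctrl was lost with a replicate block (limma adjusted p = 0.114). For NLRC5 the log2 fold change was 1.71 in MLN vs Ctrl and −0.33 in Both vs shARF, where it missed the threshold (adjusted p = 0.0621).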

How the results depend on the processing

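Of the members' own pairwise values under an alternative, 673 kept their side of the threshold, 57 lost a call and 8 gained one. Of those of the interaction, 167 kept their side, 2 lost a call and 2 gained one. No value changed sign while called. Some values that were not called did change sign, such as HLA-C in Both vs MLN (−0.0261 to 0.127). With a pseudocount of 1, fewer genes had a log2 fold change beyond 1: 3511 against 5574 in MLN vs Ctrl, 3246 against 5272 in Both vs shARF, 1059 against 2086 in shARF vs Ctrl, 786 against 1798 in Both vs MLN, 3610 against 5770 in Both vs Ctrl, 4091 against 6300 in MLN vs shARF and 1011 against 1688 in the interaction. A filter at a mean of 1 TPM left 1148 such genes in Both vs MLN and called 2 members lower in shARF vs Ctrl. With median-of-ratios scaling the members called lower were 1 in Both vs shARF, 2 in shARF vs Ctrl and 2 in Both vs MLN, and the interaction called 1 member positive. Without the trend, 0 members were higher in Both vs MLN (limma), HLA-B having an adjusted p of 0.0543. With each library left out in turn, members called lower were 0 to 1 in MLN vs Ctrl, 1 to 3 in Both vs shARF, 0 to 1 in shARF vs Ctrl and 2 to 3 in Both vs MLN, where members called higher were 0 to 1 and genes called were 4005 to 5731 of 6464, lowest without MLN replicate 2. The cause of these changes was not tested.

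The numbers in the column names are not described. Deviations of libraries with the same number correlated with r of −0.147 to 0.063 over 10 pairs. Over 44 pairs with different numbers r was −0.113 to 0.126. No pairing by number was seen in these values, but with 3 libraries per condition they cannot show that there was none. With a replicate block, genes called were 5708 of 12283 in MLN vs Ctrl (members: 5 higher, 0 lower), 0 of 8251 in shARF vs Ctrl with 0 beyond 1 (members: 0 higher, 0 lower), and 3105 of 5645 in the interaction, and 1 member was lower in MLN vs shARF. In shARF vs Ctrl the block left 7757 genes and 7 members at an unadjusted p below 0.05 (limma; no other tool was run). With the block the MLN vs Ctrl calls of HLA-B (adjusted p = 0.203), HLA-C (0.0671), B2M (0.114) and TAPBP (0.095) were lost. In the interaction the calls of HLA-C (adjusted p = 0.0659) and TAP2 (0.203) were lost only with the block. The block could not be fitted for Both vs shARF and Both vs MLN, which share 1 number. In the pairwise comparisons that were fitted, a library whose number occurs in only one group adds nothing to the block estimate. Fewer libraries then carry it, so a call lost there does not show that a difference is absent.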

Other observations

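Outside the classical pathway, the ligands of NKG2D, an activating receptor of natural killer cells, included 6 of 8 genes higher in MLN than in Ctrl (32.2% of all genes). MICB was at 24.1 to 30.6 TPM in Ctrl and 156 to 192 TPM in MLN (log2 fold change 2.68, adjusted p = 1.51e-05 in limma). RAET1L (2.73) and ULBP2 (1.59) followed the same direction. In PC3-shp14ARF cells 5 of 8 rose with the drug and RAET1E fell (−0.88, adjusted p = 0.0341), where 28.3% of all genes rose and 32.8% fell. RAET1E was not called without Both replicate 4 (adjusted p = 0.101) or 3 (0.0799) or shARF replicate 5 (0.109) or 3 (0.109). The largest rises were RAET1L at 2.59, MICB at 2.28 and ULBP2 at 1.82. Of the 8 interaction terms 3 were called negative (RAET1E −1.98, RAET1G −0.73, MICA −0.37) and 1 positive (ULBP1 0.94), against 17.1% and 11.2% of all genes. Those of RAET1L, MICB and ULBP2 did not pass (adjusted p = 0.594, 0.0565 and 0.253). The term for MICA was not called (adjusted p = 0.0533 to 0.0957) without MLN replicate 2 or 5, Both replicate 3 or 4, Ctrl replicate 1 or 2 or any one shARF library. That for RAET1G was not called (0.0516 to 0.0651) without MLN replicate 2 or 5, Both replicate 2 or 4, Ctrl replicate 2 or 3 or shARF replicate 3 or 5. ULBP2 was lower in shARF than in Ctrl (−1.01, adjusted p = 0.000278).

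The MHC class II genes, which present peptides to CD4 T cells, were near the limit of the table, and 6 of 10 passed the filter. These 6 were higher in shARF than in Ctrl (21.0% of all genes), with a median log2 fold change of 1.64. HLA-DPA1 and HLA-DPB1 passed the filter through their levels in shARF and Both, so the count is a description only. HLA-DRB1 was at 0 to 0.243 TPM in Ctrl and 1.42 to 1.92 TPM in shARF (3.14, adjusted p = 0.00548), and HLA-DRA at 0.351 to 0.593 TPM and 1.12 to 1.97 TPM (1.71, adjusted p = 0.00871). HLA-DMA (0.71) was called with all libraries but not without Ctrl replicate 3 (adjusted p = 0.0568), shARF replicate 5 (0.0573) or shARF replicate 3 (0.0584). The class I-like genes HLA-G, MR1 and FCGRT did not pass in MLN vs Ctrl (limma adjusted p = 0.177, 0.558 and 0.324). In Both vs shARF HLA-G (−0.22) and FCGRT (−0.48) were lower and MR1 (0.32) was higher, the last not without Both replicate 4 (adjusted p = 0.0571) or 2 (0.0755) or shARF replicate 1 (0.0727) or 3 (0.0697). The call for HLA-G was lost with median-of-ratios scaling (0.212), with 12 libraries in one fit (0.0659), without the trend in the variance (0.0601) and without Both replicate 4 (0.0762) or 3 (0.0551) or shARF replicate 5 (0.105), 1 (0.0633) or 3 (0.102).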
